A study of Mus musculus with 15 samples.

Results

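Pre-mRNA splicing is carried out by the spliceosome and steered by RNA-binding proteins, and 44 genes of this machinery were followed in mouse dendritic cells (DC) grown with or without interleukin-4 and then activated. The genes were chosen by symbol alone: probe sets that name 1 gene whose symbol begins with Hnrnp, Srsf followed by a digit, Sf3a or Sf3b, Snrp, or U2af. The rule found 61 probe sets of 10833 that name 1 gene. For each gene the probe set with the highest mean level over the 15 arrays was kept, which left 44 of 8251 genes: 16 hnRNP genes, 9 SR protein genes, 8 snRNP protein genes, 3 Sf3a genes, 5 Sf3b genes and 3 U2af genes. One of the 8, Snrp1c-ps2, is annotated as a pseudogene. All 44 had a signal of 16 or more on every array, and no filter on low signals was applied.

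The study cultured bone marrow of female non-obese diabetic (NOD) mice, aged 6 to 8 weeks, for 4 days. GM DC were grown in granulocyte-macrophage colony-stimulating factor (GM-CSF, 1 ng/ml) and purified on 16% metrizamide. GM4 DC were grown in GM-CSF with interleukin-4 (1 ng/ml of each) and purified on 14.5% metrizamide, so growth factor and gradient differ together. For the first GM4 0 h array the labels name both cytokines but give no dose or gradient. Both were then exposed to lipopolysaccharide (LPS, 10 µg/ml), a bacterial ligand of Toll-like receptor signalling, with interferon-γ (50 ng/ml), and RNA was taken at 0, 6 and 20 h. GM DC gave 3, 2 and 2 arrays at these times, and GM4 DC 3, 3 and 2. No unstimulated culture of 6 or 20 h was analysed here, so stimulation and time in culture cannot be told apart. The labels call the arrays replicates without tying them to separate animals or cultures, so the p-values measure the spread between these arrays. The source names of the GM4 0 h samples mention the stimulus although their titles give 0 h, and the titles were followed.

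Splicing begins when U1 snRNP marks the start of an intron and the U2AF heterodimer marks its end, after which U2 snRNP, with its SF3A and SF3B subcomplexes, binds the branch point. The Sm proteins form the ring that holds the RNA of most spliceosomal snRNPs. SR proteins bind exons and mostly favour their inclusion, whereas many hnRNPs bind introns or exons and often oppose it. In myeloid cells these proteins also affect which isoforms of signalling and cytokine genes are made after Toll-like receptor ligation.

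Each value is a MAS5 signal, a linear intensity per probe set that was scaled to the same trimmed mean on every array. Median signals were 40.03 to 48.4, and 29.7% to 35.4% of probe sets lay below 16. Differences below are on the log2(signal + 16) scale with the standard error of limma's fit (±), folds are taken on the same scale and understate the change of dim probe sets, and a gene was called at an adjusted p under 0.05 (Benjamini-Hochberg over 12422 probe sets). Arrays of 1 group correlated at 0.966 or more. The 3′ to 5′ signal ratio of the actin control, which rises as RNA is degraded, was 1.43 to 2.26 on GM arrays and 1.13 to 1.44 on GM4 arrays, and the ratio for Gapdh was 1.18 to 2.46 and 1.03 to 1.48. All 15 dendritic cell markers looked for were measured, and none was below 16 on all arrays of a group. The sum over 24 cell cycle genes was 9053 to 10963 on the GM 0 h arrays, 2389 to 4214 at 6 h and 1542 to 1574 at 20 h, and in GM4 DC it was 4249 to 6903, 2635 to 3665 and 1334 to 1522. The sum over 10 neutrophil markers was 8944 to 9213 at 0 h and 2220 to 3074 at 20 h in GM DC, and 9444 to 14482 and 1929 to 2012 in GM4 DC. Of 6 T and NK cell markers measured, 3 or 4 were below 16 on all arrays of each group. Summed over all 6, their signal ranged from 52.7 to 253 over the arrays, and the sums were 138 to 324 for 6 B cell markers, 129 to 305 for 5 erythroid markers and 362 to 1475 for 5 stromal markers. The cell cycle and neutrophil sums fell with time as many of the splicing genes did, and their part in the results was not tested. In RNA from whole cultures, fewer cells of a type and less RNA per cell cannot be told apart.

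After 20 h the difference from 0 h was below 0 for 34 of the 44 genes in GM DC and 35 in GM4 DC. In GM DC 19 of 44 fell and 3 rose, and the test was not passed by 22. That is 43.2% lower and 6.82% higher, where 16% of all 12422 probe sets were called lower and 11% higher. In GM4 DC 15 fell and 1 rose, or 34.1% and 2.27%, where 12.3% and 8.71% of all probe sets were called. The median difference over the 44 genes was -0.41 in GM DC and -0.38 in GM4 DC, against 0.01 and 0.04 over all probe sets. Bright probe sets are called more often than dim ones: among 2025 probe sets at or above the median level of the 44 genes, 28.5% were called lower in GM DC and 23.4% in GM4 DC. Called genes had separate ranges in both groups of arrays, with Snrp1c-ps2 in GM DC as the exception. The share of all called probe sets with separate ranges was not counted, so this is not shown to be particular to the 44 genes. When arrays were instead centred on their own medians, the median of all probe sets rose by 0.13 for 6 h against 0 h and by 0.12 for 20 h against 0 h in GM DC. The medians of the 44 genes were then -0.20 and -0.30, and 9 and 16 of them were called lower.

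**Figure D1:**
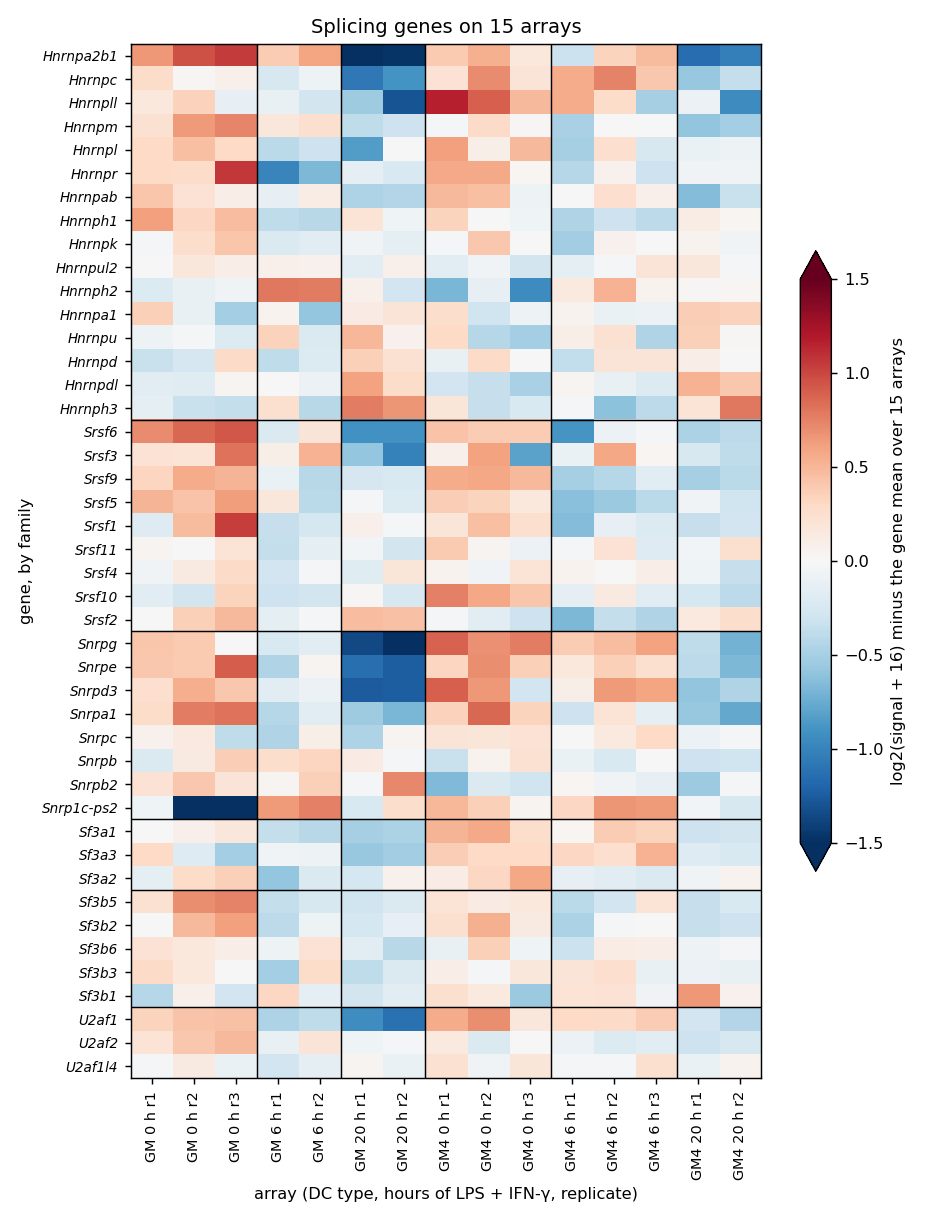
Levels of the 44 genes on the 15 arrays. Each row is a gene, ordered by family, each column an array, and the colour gives log2(signal + 16) minus the mean of that gene over the 15 arrays, cut at ±1.5. The GM 20 h and GM4 20 h columns are blue for Hnrnpa2b1, Srsf6, Snrpg, Snrpe and Snrpd3, and the first GM 0 h array differs from the other 2 for Snrp1c-ps2.

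Some genes fell by 6 h, some after it, and Snrpe, Srsf6 and U2af1 in GM DC were called lower in both steps. From 0 to 6 h in GM DC 13 genes fell and 2 rose (29.5% lower, 4.55% higher), where 15.7% of all probe sets were called lower and 8.52% higher, and 23.6% of the bright ones lower. In GM4 DC 6 fell and 1 rose (13.6% and 2.27%), where 10% and 5.84% of all probe sets and 16.2% and 15.9% of the bright ones were called, so the share lower lay between those of all and of bright probe sets. From 6 to 20 h 8 fell and 2 rose in GM DC, where 7.75% of all probe sets were called lower and 8.7% higher (bright ones 21.6% and 18.6%). In GM4 DC 7 fell and 3 rose, where 6.01% and 5.68% were called (bright ones 16.4% and 13.1%). As a share of the 44 genes, 18.2% were lower and 4.55% higher in GM DC, and 15.9% and 6.82% in GM4 DC, so the shares lower were above those of all probe sets and not above those of the bright ones. The largest called falls of this step in GM DC were those of Hnrnpa2b1, whose signals follow among the hnRNP genes, Snrpg (-1.37 ± 0.18), Snrpd3 (-1.11 ± 0.31), Snrpe (-0.98 ± 0.21) and Srsf6 (-0.89 ± 0.23), and Hnrnpdl rose (0.49 ± 0.15). Srsf3 (-1.10 ± 0.37, adjusted p = 0.0566) and Hnrnph3 (0.81 ± 0.26, adjusted p = 0.0509) did not pass. In GM4 DC they were those of Hnrnpa2b1 (-1.25 ± 0.21), Hnrnpc (-1.04 ± 0.18), Snrpg (-1.03 ± 0.16), Snrpd3 (-0.95 ± 0.28) and Snrpe (-0.78 ± 0.19), and Hnrnph3 (0.84 ± 0.24) and Hnrnpdl (0.56 ± 0.13) rose. The remaining call upward in each DC type was that of Srsf2, whose probe sets went opposite ways and are described with the other probe sets. Over both DC types and all 3 pairs of times, 28 of the 44 genes (63.6%) passed at least 1 time comparison, as did 43.9% of all probe sets and 78.9% of the bright ones.

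**Figure D2:**
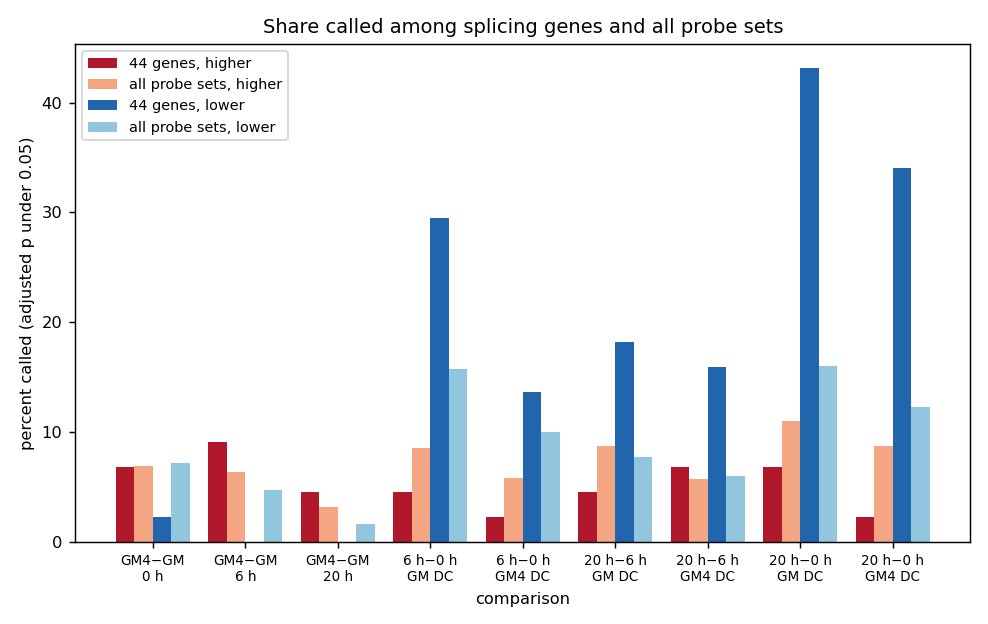
Share of genes called in each comparison. Bars give the percentage called higher or lower at an adjusted p under 0.05 among the 44 splicing genes and among all 12422 probe sets, for 9 comparisons along the horizontal axis. The bar for splicing genes called lower is 43.2% at 20 h in GM DC and 34.1% in GM4 DC, where all probe sets give 16% and 12.3%.

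Promoter sequence of 4 of these genes is shown because they stand for the time courses described next: a Sm protein gene and a U2AF gene that fell, the hnRNP gene with the largest fall, and the hnRNP gene that rose at 6 h. Each line gives the 150 bases before the most upstream start in RefSeq's promoter table for GRCm38.p6, 5′ to 3′ on the strand of the gene, and capitals mark 4 motifs on either strand. They are CCAAT (the NF-Y core), GGGCGG (the GC box of Sp factors), CCGGAAG (the ETS factor core) and TGACGT (part of the cAMP response element). The positions are Snrpg at chr6:86371390-86371539 (plus strand), U2af1 at chr17:31658765-31658914 (minus strand), Hnrnpa2b1 at chr6:51469895-51470044 (minus strand) and Hnrnph2 at chrX:134601029-134601178 (plus strand). The U2af1 and Hnrnpa2b1 windows lie inside the full span of the gene in RefSeq, whose other transcript models reach further upstream.
Snrpg: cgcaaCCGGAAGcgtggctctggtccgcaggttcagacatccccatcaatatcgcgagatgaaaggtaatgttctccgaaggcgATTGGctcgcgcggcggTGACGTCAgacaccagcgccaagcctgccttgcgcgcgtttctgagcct
U2af1: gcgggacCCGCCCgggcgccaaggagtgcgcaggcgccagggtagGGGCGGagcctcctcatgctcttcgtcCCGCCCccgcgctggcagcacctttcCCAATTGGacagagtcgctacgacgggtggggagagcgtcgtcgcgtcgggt
Hnrnpa2b1: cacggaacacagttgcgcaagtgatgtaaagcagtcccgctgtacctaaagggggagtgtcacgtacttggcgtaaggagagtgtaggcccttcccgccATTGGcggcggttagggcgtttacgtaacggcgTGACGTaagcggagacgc
Hnrnph2: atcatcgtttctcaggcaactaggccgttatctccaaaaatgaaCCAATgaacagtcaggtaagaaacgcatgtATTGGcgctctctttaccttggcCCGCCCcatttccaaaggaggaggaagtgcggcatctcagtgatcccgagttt

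The promoter table held 38 of the 44 genes, and 7 motifs were searched on both strands in the 250 bases before each start. CCGGAAG was in 13 of the 38 (34.2%) and in 9.15% of 17492 promoters of protein-coding genes. GGGCGG was in 26 (68.4%) and in 42.7% of the protein-coding set. TGACGT was in 7 (18.4%) and 7.53%, and CCAAT was in 17 (44.7%) and 36.5%. CACGTG, an E-box, was in 1 (2.63%) and 6.65%. The NF-kappaB-like and interferon response-like motifs, also searched, were in 0 of the 38, and in 1.39% and 3.04% of the protein-coding set. Among the printed windows, Snrpg held the ETS and NF-Y cores at 1 place each, and TGACGT on both strands from overlapping letters. U2af1 held GGGCGG at 3 places and CCAAT at 2 overlapping ones. Hnrnpa2b1 held TGACGT and CCAAT at 1 place each, and Hnrnph2 held CCAAT at 2 places and GGGCGG at 1. These are matches of letters and not sites of binding.

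Among the snRNP protein genes, Snrpg, Snrpe and Snrpd3, which encode the Sm ring proteins G, E and D3, and Snrpa1, which encodes the U2 snRNP protein A′, fell by 20 h in both DC types. These are 4 of 8 in each (50%), where 16% of all probe sets were called lower in GM DC and 12.3% in GM4 DC. Among the bright ones 28.5% and 23.4% were. The median over the 8 was -0.69 in GM DC and -0.68 in GM4 DC. Snrpg had signals of 499, 489 and 367 on the GM 0 h arrays, 312 and 329.8 at 6 h, then 135 and 96.9 at 20 h. On GM4 arrays it had 697, 603 and 638, then 485, 513 and 570.2, then 279 and 220.2. Every GM4 array was above every GM array of the same time, and the 20 h arrays of each DC type lay below all its earlier arrays. The 20 h difference was -1.83 ± 0.16 in GM DC (3.55-fold lower, adjusted p = 1.83e-06) and -1.32 ± 0.16 in GM4 DC (2.50-fold lower, adjusted p = 6.38e-05). Most of it lay between 6 and 20 h, where the differences were -1.37 ± 0.18 and -1.03 ± 0.16.

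Snrpe had signals of 1504, 1495 and 2144 at 0 h, 825 and 1163 at 6 h, then 507 and 473 at 20 h in GM DC. In GM4 DC it was 1416, 1853 and 1461, then 1266, 1460.2 and 1341, then 861 and 706. The 3 times did not overlap in GM DC, whereas the 0 and 6 h arrays of GM4 DC did. The differences at 20 h were -1.75 ± 0.19 (3.37-fold lower, adjusted p = 8.98e-06) and -0.99 ± 0.19 (1.99-fold, adjusted p = 0.0019). At 6 h Snrpe fell in GM DC (-0.78 ± 0.19) and did not pass in GM4 DC (-0.21 ± 0.17, adjusted p = 0.503). Its probe set ends in _f_at, the mark of a set that can match related transcripts, and Sm protein genes have many processed copies.

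Snrpd3 was 110.1, 139.5 and 124 at 0 h, 78.7 and 83.7 at 6 h, then 28.9 and 29.2 at 20 h in GM DC. The GM4 arrays gave 182, 150.3 and 71.4, then 96.9, 149 and 144, then 54.8 and 62.0. The third GM4 0 h array was the lowest of its group and lay near the 20 h arrays, though still above them. The 20 h differences were -1.64 ± 0.28 (3.11-fold lower, adjusted p = 0.000493) and -0.94 ± 0.28 (adjusted p = 0.0296). Snrpa1 differed by -1.23 ± 0.23 and -1.19 ± 0.23 at 20 h, and by -0.92 ± 0.23 at 6 h in GM DC. The other snRNP proteins, Snrpb and Snrpb2 (the Sm proteins B/B′ and the U2 protein B″) and Snrpc (the U1 protein C), passed no test, with 20 h differences between -0.29 and 0.11.

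Snrp1c-ps2, a pseudogene probed by a _f_at set, was 224, 58.5 and 55.0 on the GM 0 h arrays, 375 and 409 at 6 h, then 199 and 285 at 20 h. For GM4 DC the signals were 339, 307 and 242, then 298, 384 and 377, then 229 and 198. The first GM 0 h array was within the range of the 20 h arrays and below every 6 h array, and the other 2 were the lowest of all 15. The differences were 1.91 ± 0.39 at 6 h in GM DC (adjusted p = 0.00221), 1.23 ± 0.39 at 20 h in GM DC (adjusted p = 0.0291) and 1.51 ± 0.35 for GM4 against GM at 0 h (adjusted p = 0.00967), and the low GM 0 h mean comes from those 2 arrays. The related Snrpc had differences of -0.12, -0.15 and 0.25 in the same comparisons, none of which passed.

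U2af1 encodes the small U2AF subunit, which reads the AG at the end of an intron, and it fell at 20 h in both DC types. It was 406, 433 and 437 at 0 h, 227 and 240.3 at 6 h, then 159 and 138 at 20 h in GM DC. In GM4 DC it was 476, 527 and 359, then 393, 392 and 419, then 258 and 230.5. In GM DC all 3 times were separate, while in GM4 DC the third 0 h array lay below the 6 h arrays. The 20 h differences were -1.43 ± 0.15 (2.69-fold lower, adjusted p = 5.2e-06) and -0.84 ± 0.15 (1.79-fold, adjusted p = 0.000906), and the 6 h differences -0.82 ± 0.15 (adjusted p = 0.000789) and -0.15 ± 0.13 (adjusted p = 0.516). U2af2, the large subunit that binds the polypyrimidine tract, fell in GM DC at 20 h (-0.41 ± 0.14, adjusted p = 0.0411), and did not pass in GM4 DC (-0.25 ± 0.14). U2af1l4, a relative of U2af1, passed no test.

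Of the 3 Sf3a genes, Sf3a1, which encodes the SF3A subunit 1 of U2 snRNP, fell at 20 h in both DC types. Its 20 h differences were -0.56 ± 0.15 in GM DC and -0.74 ± 0.15 in GM4 DC, falling from 131, 141 and 151 to 89.3 and 91.0 on the GM arrays. The GM4 arrays read 195, 204 and 162 before stimulation, then 104 and 107 after 20 h. The 2 times were separate in each DC type. By its chosen set, of the _f_at kind, Sf3a2 was lower at 6 h in both (-0.56 ± 0.18 and -0.50 ± 0.16). It did not pass at 20 h (-0.26 ± 0.18 and -0.34 ± 0.18). Its second set, 92197_r_at, differed by 0.34 ± 0.35 in GM DC and -0.33 ± 0.31 in GM4 DC at 6 h, and neither passed. Averaged over its probe sets, Sf3a2 lost both calls. Of 27 other settings of the fit, described below, 7 lost the GM DC call and 13 the GM4 DC call. Sf3a3 passed no test, and its 20 h differences were -0.41 ± 0.19 and -0.53 ± 0.19. At 20 h 1 of the 3 genes was thus lower in each DC type (33.3%). Of all probe sets 16% and 12.3% were, and of the bright ones 28.5% and 23.4%.

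Among the 5 Sf3b genes, Sf3b5 was called lower in GM DC alone, Sf3b2 at 1 time in each DC type, and the other 3 passed no test. At 20 h 1 of the 5 was lower in each DC type (20%). Of all probe sets 16% and 12.3% were then lower, and of the bright ones 28.5% and 23.4%. Sf3b5, a small SF3B subunit, was 462, 644 and 663 at 0 h, 301 and 329.7 at 6 h, then 314 and 334 at 20 h in GM DC, differences of -0.85 ± 0.18 and -0.82 ± 0.18 from 0 h. In GM DC it reached its lower level by 6 h and its 20 h arrays overlapped the 6 h ones. The GM4 arrays read 454, 428 and 436, then 291, 318 and 453, then 305 and 332, and no change over time passed there. Sf3b2 fell by 6 h in GM DC (-0.60 ± 0.20) and by 20 h in GM4 DC (-0.63 ± 0.20). Its only probe set is of the _f_at kind, and these calls were lost in 16 and 10 of the 27 other settings. Sf3b1, the subunit that clamps the branch point helix, differed by 0.00 ± 0.24 and 0.42 ± 0.24 at 20 h, Sf3b3 by -0.44 and -0.19, and Sf3b6, which contacts the branch point adenosine, by -0.45 and -0.10.

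**Figure D3:**
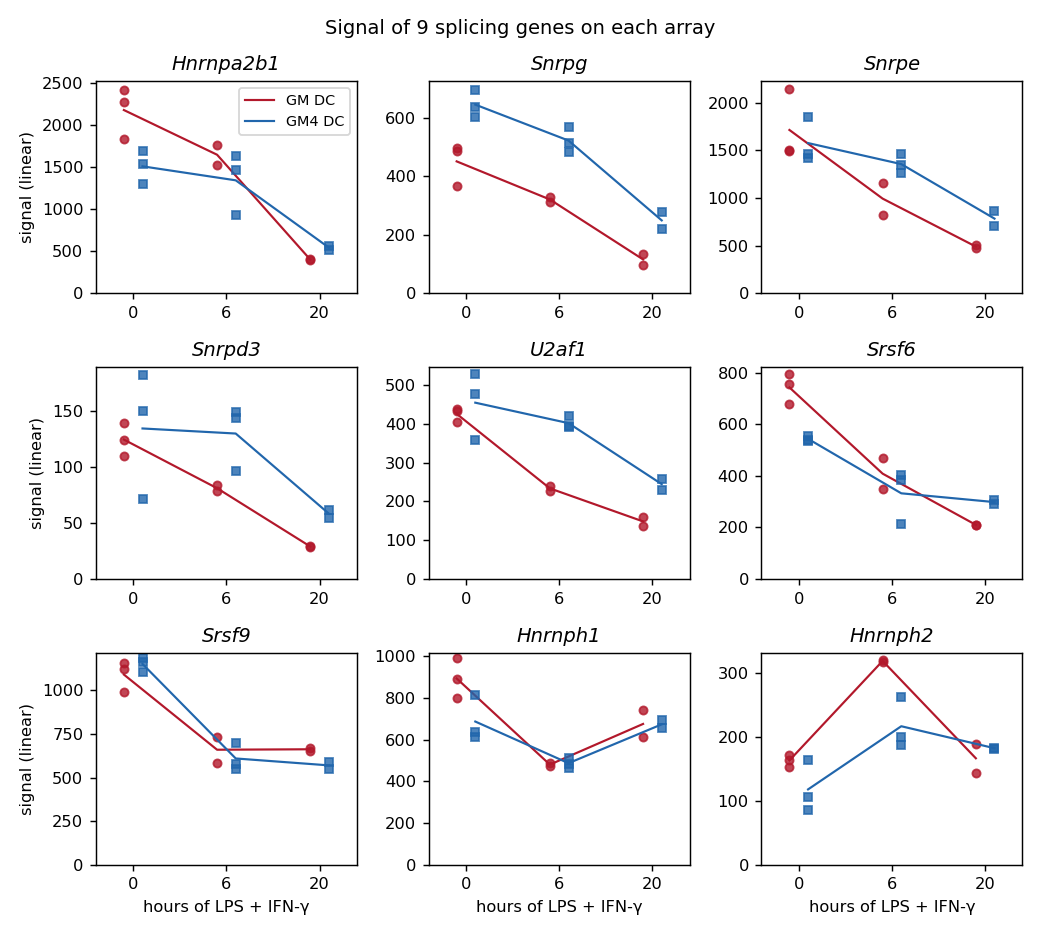
Signals of 9 genes on every array. Points are single arrays of GM DC (red circles) and GM4 DC (blue squares), the vertical axes give linear signal from 0, the horizontal axes hours of stimulation (evenly spaced, not to scale), and lines join the group means. Hnrnpa2b1 lies between 391 and 565 at 20 h in both DC types, below every earlier array, Srsf9 is already at its lower level at 6 h, and Hnrnph2 is highest at 6 h in GM DC.

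Of the 9 SR protein genes 3 fell by 6 h in GM DC and 4 in GM4 DC (33.3% and 44.4%), and none rose, where 15.7% and 10% of all probe sets and 23.6% and 16.2% of the bright ones were lower. Srsf5, Srsf6 and Srsf9, which bind enhancer sequences in exons, fell in both DC types, and Srsf10 in GM4 DC. Srsf9 was 989.5, 1159.6 and 1123 at 0 h, 733 and 586 at 6 h, then 655 and 669 at 20 h in GM DC. The GM4 arrays gave 1163, 1185 and 1106, then 550.1, 580.3 and 698, then 550.2 and 589.7. The 0 h arrays stood above all later ones, and the 6 and 20 h arrays overlapped. The 6 h differences were -0.72 ± 0.13 (adjusted p = 0.00114) and -0.91 ± 0.12 (adjusted p = 0.000136), and those at 20 h -0.70 ± 0.13 and -0.99 ± 0.13.

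Srsf6 was 679.9, 756 and 794 at 0 h, 349 and 469 at 6 h, then 210.1 and 210.4 at 20 h in GM DC. For GM4 DC the signals were 556, 537 and 538, then 214, 382 and 402, then 290.0 and 307. GM DC reached a second, lower level at 20 h, whereas the 6 and 20 h arrays of GM4 DC overlapped. The differences from 0 h were -0.85 ± 0.21 and -0.73 ± 0.19 at 6 h, and -1.74 ± 0.21 (3.35-fold lower, adjusted p = 2.15e-05) and -0.83 ± 0.21 (1.78-fold, adjusted p = 0.0109) at 20 h. Srsf5 differed by -0.64 ± 0.16 and -0.82 ± 0.14 at 6 h, and at 20 h by -0.63 ± 0.16, which passed in GM DC, and -0.46 ± 0.16, which did not in GM4 DC (adjusted p = 0.0561).

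Srsf10, whose product represses splicing when it is dephosphorylated, fell in GM4 DC by 6 h (-0.64 ± 0.18) and by 20 h (-0.92 ± 0.20), and differed by -0.25 ± 0.20 and -0.08 ± 0.20 in GM DC, which did not pass. Its second set, 102046_at, fell in GM DC at 6 h (-1.04 ± 0.25, adjusted p = 0.00765) and did not pass in GM4 DC (-0.47 ± 0.23), so the 6 h calls of the sets fall in different DC types. Signals of the chosen set went from 154, 135 and 118 to 67.7 and 60.6 over 20 h in GM4 DC, with 73.4, 67.2 and 111 against 86.0 and 69.0 in GM DC. In that set the GM4 0 h arrays were the high ones. Srsf3 fell in GM DC at 20 h (-1.20 ± 0.33) with signals of 522, 516 and 796 at 0 h and 293 and 214 at 20 h, and did not pass in GM4 DC (-0.27 ± 0.33). Srsf1, Srsf4 and Srsf11 passed no test, although Srsf1 had a difference of -0.75 ± 0.29 at 6 h in GM DC (adjusted p = 0.0792), with 0 h signals of 49.3, 87.6 and 138.

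Of the 16 hnRNP genes 9 passed at 20 h in GM DC, 7 lower and 2 higher, and 6 in GM4 DC, 5 lower and 1 higher. The shares lower were 43.8% and 31.2%, beside 16% and 12.3% of all probe sets and 28.5% and 23.4% of the bright ones. Hnrnpa2b1, whose protein binds UAG-containing RNA and also sorts RNA for transport, had the largest fall of the 44 genes. It was 1840.4, 2277 and 2424 at 0 h, 1528 and 1769 at 6 h, then 391 and 410.1 at 20 h in GM DC. In GM4 DC it was 1538, 1691 and 1304, then 931, 1472 and 1630.5, then 520.3 and 565. The 20 h arrays were far below every earlier array, and the 0 and 6 h arrays overlapped in GM4 DC. The 20 h differences were -2.39 ± 0.21 (5.24-fold lower, adjusted p = 1.22e-06) and -1.44 ± 0.21 (2.72-fold, adjusted p = 0.000189), against 6 h differences of -0.39 ± 0.21 and -0.20 ± 0.18 that did not pass.

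Hnrnpc, whose protein coats nascent transcripts at U-rich tracts, also fell late. It was 160.3, 131 and 137 at 0 h, 108 and 122 at 6 h, then 53.2 and 62.4 at 20 h in GM DC, and 154, 222 and 151, then 199, 228 and 177, then 81.9 and 97.2 in GM4 DC. The 20 h arrays lay below all earlier arrays of each DC type. Between 6 and 20 h the differences were -0.83 ± 0.20 and -1.04 ± 0.18. Hnrnpll, a regulator of Cd45 splicing in lymphocytes, differed by -1.05 ± 0.33 and -1.37 ± 0.33 at 20 h, Hnrnpm by -0.88 and -0.64, and Hnrnpab by -0.69 and -0.78, all of which passed. Hnrnpl, which binds CA-rich RNA, passed in GM DC (-0.70 at 6 h, -0.77 at 20 h) and not in GM4 DC (-0.56 and -0.49). Its calls in GM DC were lost in 18 and 8 of the 27 other settings.

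Hnrnph1 and Hnrnpr were lowest at 6 h. Hnrnph1, whose protein binds G-rich tracts, was 992, 800.1 and 889.6 at 0 h, 488 and 474 at 6 h, then 740.2 and 611 at 20 h in GM DC, and 814, 636 and 611, then 464, 513 and 485, then 692 and 655 in GM4 DC. The 6 h arrays were below both other times in each DC type. The 6 h differences were -0.87 ± 0.14 (adjusted p = 0.000426) and -0.47 ± 0.13 (adjusted p = 0.0203), and at 20 h no difference from 0 h passed (-0.40 and -0.02). Hnrnpr was 179, 176 and 315 at 0 h, 63.8 and 83.5 at 6 h, then 127 and 119 at 20 h in GM DC, a 6 h difference of -1.38 ± 0.24 (2.60-fold lower, adjusted p = 0.000805). The third GM 0 h array was the highest of the 15. At 20 h Hnrnpr was still called lower than at 0 h in GM DC, a call lost in 11 of the 27 other settings. In GM4 DC the 6 h difference was -0.61 ± 0.22 (adjusted p = 0.0759).

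Hnrnph2, a close paralogue of Hnrnph1 on the X chromosome, went the other way at 6 h. It was 153, 164 and 172 at 0 h, 320.0 and 317 at 6 h, then 189 and 144 at 20 h in GM DC. The GM4 arrays gave 105, 163 and 85.0, then 199.9, 263 and 187, then 182 and 183. The 6 h arrays were above the 0 h arrays in both, and in GM DC above the 20 h arrays too. The rise was 0.90 ± 0.21 (1.87-fold, adjusted p = 0.00594) and 0.83 ± 0.19 (1.77-fold, adjusted p = 0.00806). In GM DC it fell again from 6 to 20 h (-0.89 ± 0.23).

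Hnrnpdl and Hnrnph3 rose late. Hnrnpdl, an AU-rich RNA-binding protein, was 1138, 1136 and 1322 at 0 h, 1280.1 and 1210.3 at 6 h, then 1966 and 1563 at 20 h in GM DC, and 1047, 1005 and 917, then 1322, 1184 and 1109, then 1847 and 1713 in GM4 DC. The 20 h arrays were above all earlier ones in each. The rises were 0.55 ± 0.13 (1.46-fold) and 0.84 ± 0.13 (1.79-fold, adjusted p = 0.00048). Hnrnph3 rose by 0.99 ± 0.24 in GM DC at 20 h, and by 0.84 ± 0.24 between 6 and 20 h in GM4 DC, where the difference from 0 h was 0.63 ± 0.24 (adjusted p = 0.0829). By their chosen sets Hnrnpa1, Hnrnpd, Hnrnpk, Hnrnpu and Hnrnpul2 passed no test in any comparison. Their largest differences had sizes of 0.26 to 0.58. A second set of Hnrnpul2, described with the other probe sets, did pass.

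The 2 time courses shared many of their calls. At 20 h 13 genes fell in both DC types, which is 68.4% of the 19 in GM DC and 86.7% of the 15 in GM4 DC. They were Hnrnpa2b1, Hnrnpab, Hnrnpc, Hnrnpll, Hnrnpm, Sf3a1, Snrpa1, Snrpd3, Snrpe, Snrpg, Srsf6, Srsf9 and U2af1. At 6 h 5 fell in both (38.5% of 13 and 83.3% of 6), namely Hnrnph1, Srsf5, Srsf6, Srsf9 and, by its chosen set alone, Sf3a2. From 6 to 20 h 6 fell in both (75% of 8 and 85.7% of 7), namely Hnrnpa2b1, Hnrnpc, Snrpd3, Snrpe, Snrpg and U2af1. Such overlaps were not set beside those of all probe sets, so these shares are not shown to be particular to the splicing genes. Of the 22 calls at 20 h in GM DC 11 held under each of 27 other settings, 15 of which leave out 1 array each, and 7 of the 16 in GM4 DC did, and these include Hnrnpa2b1, Snrpg, Snrpe, Snrpa1, Srsf9 and U2af1 in both. Without the second GM 20 h array 14 genes were called at 20 h in GM DC, and without the second GM4 20 h array 10 in GM4 DC. Without the third GM 0 h and the first GM 6 h array together, which an earlier analysis doubted, 20 and 18 were called.

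At 6 h 5 of the 15 calls in GM DC held under every setting (Hnrnph1, Hnrnpr, Snrp1c-ps2, Srsf9 and U2af1) and 3 of the 7 in GM4 DC (Hnrnph2, Srsf5 and Srsf9). Without the first GM 6 h array 8 genes were called in GM DC at 6 h, and 6 when the third GM 0 h array was left out too, and without the first GM4 0 h or the first GM4 6 h array 4 were called in GM4 DC. Between 6 and 20 h the calls of Hnrnpa2b1 and Snrpg held under every setting in GM DC, and those of Hnrnpc and Snrpg in GM4 DC. The count for that step fell from 10 to 2 without the second GM 6 h array, to 6 without the first, and to 5 without either GM 20 h array. In GM4 DC it fell from 10 to 3 without the second GM4 20 h array, and to 6 without the second or the third GM4 6 h array.

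**Figure D4:**
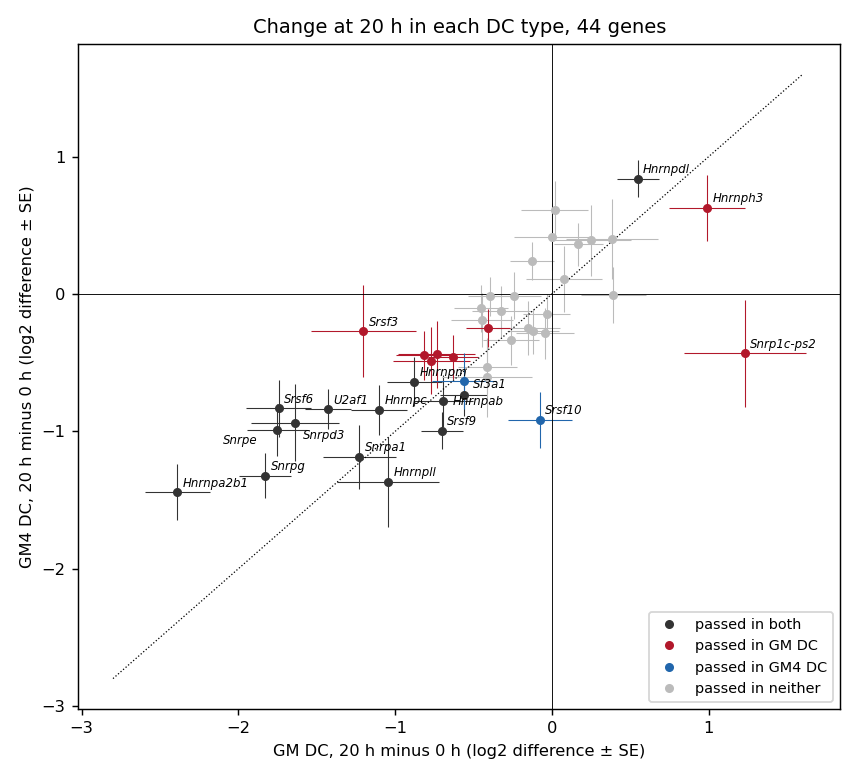
Difference between 20 h and 0 h in GM DC (horizontal axis) and GM4 DC (vertical axis) for the 44 genes, in log2(signal + 16) with bars of 1 standard error. Colours show where the test was passed, the dotted line marks equal differences, and genes passed in both DC types and 4 others carry names. The 13 genes that fell in both lie in the lower left, with Hnrnpa2b1 at -2.39 and -1.44.

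Few of the 44 genes passed in a comparison of the DC types at 1 time. At 0 h 3 were higher and 1 lower in GM4 DC (6.82% and 2.27%), where 6.86% of all probe sets were called higher and 7.12% lower, and 17.9% and 14.1% of the bright ones. At 6 h 4 were higher and 0 lower (9.09% and 0%), where 6.39% and 4.74% of all probe sets and 14.9% and 13.8% of the bright ones were called. At 20 h 2 were higher and 0 lower (4.55% and 0%), where 3.14% and 1.56% were called, and 10.3% and 4.4% of the bright ones. The shares lower were below those of all probe sets at each time, and the shares in both directions below those of the bright ones. At an unadjusted p under 0.05 limma gave 16, 11 and 6 of the 44 genes in time order (36.4%, 25% and 13.6%), where 26.9%, 25.3% and 17% of all probe sets had such a p. In all 7 genes passed at 1 time or more.

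Snrpg was higher in GM4 DC at each time, by 0.51 ± 0.15 at 0 h (adjusted p = 0.0337), 0.67 ± 0.16 at 6 h (adjusted p = 0.0174) and 1.02 ± 0.18 at 20 h (2.02-fold, adjusted p = 0.00519). U2af1 was higher in GM4 DC at 6 h (0.74 ± 0.15, adjusted p = 0.00493) and 20 h (0.66 ± 0.16, adjusted p = 0.0291), and its 0 h difference was 0.07 ± 0.13. Both genes had ranges that did not overlap between DC types wherever they passed. At 6 h Hnrnpc (0.72 ± 0.18, adjusted p = 0.0192) and Sf3a1 (0.64 ± 0.15, adjusted p = 0.0137) were also higher. At 0 h Snrp1c-ps2, described above, and Srsf10 (0.62 ± 0.18, adjusted p = 0.0365) were higher. The chosen set of Srsf2 gave the call lower (-0.44 ± 0.14, with an adjusted p that rounds to 0.05), which was lost in 20 of 27 other settings. Of 10 macrophage markers 8, 10 and 3 were lower in GM4 DC at 0, 6 and 20 h, and of 15 dendritic cell markers 9, 5 and 5 were higher. The macrophage sum was 13068 to 25485 on GM arrays and 4443 to 9245 on GM4 arrays, and its part in these differences was not tested. The actin ratio nearly separates GM from GM4 arrays. With the mean log2 3′ to 5′ ratio as a covariate, none of the 10 calls passed at any of the 3 times, while 23 and 18 genes still passed at 20 h against 0 h in GM DC and GM4 DC. Of the counts by DC type, that at 0 h fell to 0 without the second GM 0 h array, that at 6 h to 0 without the first GM 6 h array, and that at 20 h to 0 without the second GM 20 h or the first GM4 20 h array. The count at 0 h was 2 without the third GM 0 h or the second or the third GM4 0 h array, and 7 without the first GM 0 h or the first GM4 6 h array. That at 6 h was 2 without the second or the third GM4 6 h array, and that at 20 h was 1 without the first GM 20 h or the second GM4 20 h array.

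Whether the response itself differed between DC types was tested as the difference of the 2 responses. None of the 44 genes passed at 6 h, where 0.958% of all probe sets did, and none at 20 h, where 1.26% did. On simulated data the fit recovered 31% of differences of 6 h responses with a log2 size of 1. A gene that did not pass is thus not shown to respond alike in both DC types. At an unadjusted p under 0.05 limma gave 5 genes at 6 h and 7 at 20 h. These are 11.4% and 15.9% of the 44 genes, near the 12.3% and 12.6% of all probe sets with such a p. The sizes at 20 h (GM4 response minus GM response) were 0.95 ± 0.29 for Hnrnpa2b1 (adjusted p = 0.151), 0.91 ± 0.29 for Srsf6 (adjusted p = 0.176), 0.76 ± 0.27 for Snrpe and 0.59 ± 0.21 for U2af1. For each of these the fall was smaller in GM4 DC. Srsf3 had 0.93 at 20 h. Srsf10 went the other way (-0.84 ± 0.29), and Snrp1c-ps2 had the lowest values of the 44 genes (-1.67 at 6 h and -1.66 at 20 h). At 6 h U2af1 differed by 0.67 ± 0.20 (adjusted p = 0.131) and Hnrnpr by 0.76 ± 0.33 (adjusted p = 0.353). Without the first GM4 6 h array Hnrnpa2b1 and Srsf6 passed at 20 h, and without the first GM 0 h array Snrp1c-ps2 passed at both times. Calls made in 1 DC type alone, such as U2af1 and Snrpe at 6 h in GM DC, are not shown to be particular to it.

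For 14 of the genes more than 1 probe set was on the array, and 17 further sets could be set beside the chosen ones. Srsf2, which encodes SC35, an SR protein of nuclear speckles, had opposite calls. Its chosen set 94017_s_at read 1662 and 1799.5 at 6 h, then 2532 and 2497 at 20 h in GM DC, and 1142, 1427 and 1346, then 2032 and 2205 in GM4 DC, differences of 0.54 ± 0.17 and 0.70 ± 0.16. The set 95791_s_at read 283 and 393, then 118 and 110.2 in GM DC, and 262, 309 and 286, then 121 and 123 in GM4 DC, differences of -1.43 ± 0.25 (adjusted p = 0.00147) and -1.12 ± 0.23 (adjusted p = 0.0058). Each set had separate ranges at the 2 times in both DC types, in opposite directions, so no direction is given for Srsf2, which the counts above hold by its chosen set. Both sets are of the _s_at kind, which can match several transcripts, and probe sequences were not used here.

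For Hnrnpa2b1 the second set, 93118_at, was dim, at 93.1, 52.9 and 31.8 on the GM 0 h arrays and 75.0 and 60.9 at 20 h. It differed by 0.23 ± 0.31 and 0.16 ± 0.31 at 20 h and did not follow the fall of the chosen set. For Hnrnpdl the chosen set ends in _s_at, and the set 96084_at differed by -0.30 ± 0.21 and -0.26 ± 0.21 at 20 h, which did not pass, and fell by 6 h in GM DC (-0.90 ± 0.21, adjusted p = 0.00641). Between 6 and 20 h it differed by 0.60 ± 0.24 (adjusted p = 0.105) and 0.27 ± 0.21, the direction of the chosen set, so the rise of Hnrnpdl over 0 h rests on 1 of its probe sets. For Hnrnpab the set 95911_at read at most 17.3 on any array and is not used as a second reading. For Hnrnpul2, whose chosen set passed no test, the set 104296_at was higher in GM4 DC at 0 h (0.63 ± 0.17, adjusted p = 0.0228). It also rose from 6 to 20 h in GM DC (0.67 ± 0.21, adjusted p = 0.038). The chosen set differed by -0.26 and -0.11 in these comparisons, so no direction is given for Hnrnpul2. For Srsf10 the set 102046_at fell by 20 h in GM4 DC (-0.83 ± 0.25) with the chosen set, but at 0 h it was -0.37 ± 0.23 for GM4 against GM where the chosen set was 0.62 ± 0.18. For Srsf1, whose chosen set passed no test, the set 160539_at differed by -1.03 ± 0.27 (adjusted p = 0.0102) at 20 h in GM DC, where it read 16.1 and 25.1, and the set 101022_at read at most 25.5 on any array and is not used.

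**Figure D5:**
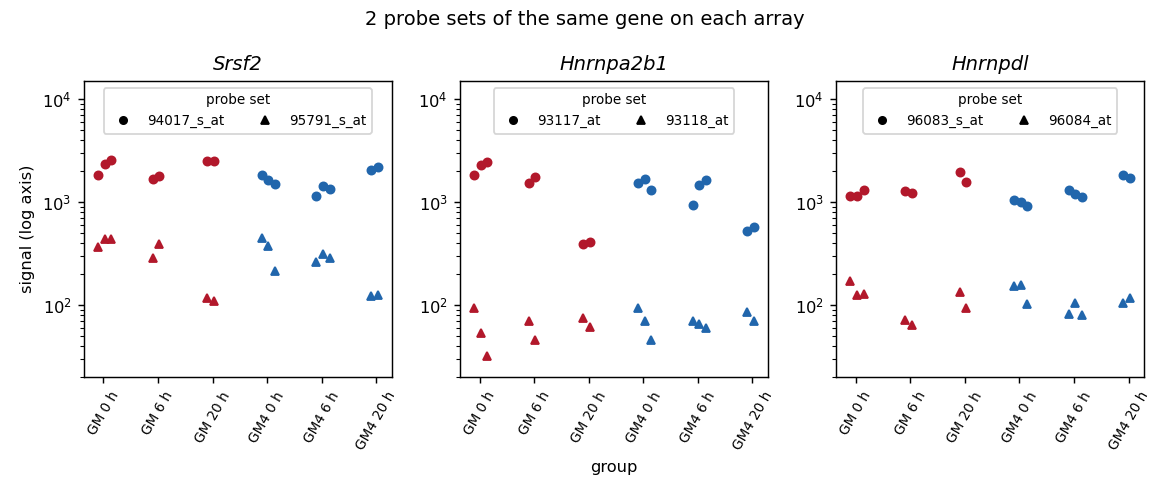
Signals of 2 probe sets each for Srsf2, Hnrnpa2b1 and Hnrnpdl. Points are single arrays in 6 groups (GM in red, GM4 in blue), the vertical axis is linear signal on a log axis, and shapes tell the probe sets apart. The Srsf2 sets part between 6 and 20 h, and the Hnrnpa2b1 set 93118_at does not show the fall to 391 to 565 of the chosen set.

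A further 124 splicing genes outside the rule were listed, and 91 were measured. At 20 h 33 fell and 4 rose in GM DC, and 20 fell and 3 rose in GM4 DC, with medians of -0.39 and -0.26. Of all probe sets 16% and 12.3% were then called lower, and of the bright ones 28.5% and 23.4%. At 6 h 24 fell and 2 rose in GM DC (median -0.27), and 10 fell and 3 rose in GM4 DC (median -0.12). There 15.7% and 10% of all probe sets and 23.6% and 16.2% of the bright ones were lower. In GM4 DC the share of these 91 genes that fell by 6 h was near that of all probe sets. By sub-list at 20 h in GM DC, 13 of 27 other RNA-binding regulators fell and 0 rose, 15 of 44 other spliceosome proteins fell and 1 rose, and of 7 splicing kinases 1 fell and 2 rose. Their medians were -0.57, -0.23 and 0.23, beside 0.01 over all probe sets, of which 16% were lower. Most members of each sub-list did not pass.

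At 6 h in GM DC the largest fitted falls among called genes outside the rule were those of Lsm2, of the ring on U6 RNA (-2.01 ± 0.33, at 13.2 and 48.8 at 6 h), the SR protein kinase Srpk2 (-1.27 ± 0.20, with signals of 31.9, 35.9 and 21.2 at 0 h and 2.21 and 3.19 at 6 h, the latter too dim to give a level), the U5 protein Txnl4a (-1.23 ± 0.21), Celf2 (-1.12 ± 0.24) and Tial1 (-1.04 ± 0.15). In GM4 DC they were those of the tri-snRNP protein Prpf6 (-0.97 ± 0.10), Syncrip (-0.92 ± 0.20), Tial1 (-0.71 ± 0.13), the U5 scaffold Prpf8 (-0.67 ± 0.19) and Txnl4a (-0.67 ± 0.19). Prpf38a, needed for activation of the assembled spliceosome, rose in both. Its GM signals went from 107, 108 and 100.4 at 0 h to 253 and 346 at 6 h, and 121, 123 and 117, then 251, 354 and 359 on the GM4 arrays, rises of 1.36 ± 0.19 and 1.29 ± 0.17. Nono rose by 0.56 ± 0.15 and 0.44 ± 0.14, and the kinase Clk1 by 0.60 ± 0.19 in GM4 DC. Between DC types at 0 h, Rbm39 (-1.02 ± 0.20), Sart3 (-0.84 ± 0.20) and Clk4 (-0.64 ± 0.15) were lower in GM4 DC, and Prpf6 (0.75 ± 0.10), Srpk1 (0.62 ± 0.14) and Phf5a (0.60 ± 0.13) were higher.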

How the data were processed

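RNA of 15 samples was hybridised to 1-colour Affymetrix mouse arrays of 12488 probe sets. Per the submitters' processing notes, MAS5 made the values, and the authors deposited them as linear signal intensity per probe set. The sources used here do not give the version or the scaling target of MAS5. The deposited signals have a 2% trimmed mean of about 150.1 on each array. Here 66 control probe sets were left out, 16 was added to each signal and log2 taken. One limma fit (version 3.58.1, R 4.3.3; lmFit and eBayes with an intensity trend) over 6 group means on 15 arrays (residual df 9, prior df 4.76) gave 11 contrasts, with two-sided p-values adjusted by Benjamini-Hochberg over 12422 probe sets. The number of arrays limits the precision.

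Gene names came from GEO's platform annotation: 10833 probe sets name 1 gene, 396 several and 1193 none. All 44 symbols matched RefSeq's gene table (GRCm38.p6). For 9 genes the chosen probe set has an ending (_s_at, _f_at or _r_at) that marks lower specificity, and 7 probe sets with several symbols were left out. The members and lists were chosen with earlier results of these data known. Genes are named with values where they passed and the 2 groups of arrays did not overlap, up to 10 each way at 6 h and 5 each way elsewhere (3 to 5 among other splicing genes), and otherwise to account for a family.

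Same-numbered replicates were not taken as pairs, because only 16 of 33 pairs had deviations correlated over 0.1 (range 0.0026 to 0.332). All 3 pairs of GM4 0 h and GM4 6 h were over it (0.115 to 0.193). Every correlation was positive, so an effect shared by same-numbered arrays is not excluded. Alternatives were the offset (1 or 64), normalization, a filter, equal variance, array weights, samples, probe sets, the 3′ to 5′ ratio and left-out arrays. On simulated data with 200 changed probe sets the fit for 6 h against 0 h in GM DC recovered 70% of those with a log2 change of 1 and 96% of those with 2. For the difference of 6 h responses it recovered 31% and 85%. The data called more than 200 probe sets for 6 h against 0 h in GM DC, so the adjusted threshold there was not that of the simulation.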

Additional observations from a re-analysis of the deposited data

How the results depend on the processing

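Over 2430 recomputed values of called genes, 2113 stayed on the same side of the threshold with the same direction, 315 lost the call and 2 reversed: averaging over every probe set of each gene, Srsf2 at 20 h against 6 h was -0.45 in GM DC and -0.21 in GM4 DC. Counts of called genes moved most for GM4 against GM. At 0 h (main count 4) it was 8 with quantile normalization, 7 with the filter on low signals, 11 with array weights, 1 with the 2 groups alone, 0 with the 3′ to 5′ ratio as covariate, and 1 without GM 0 h replicate 3 and GM 6 h replicate 1 together, arrays that an earlier analysis doubted. At 6 h (main 4) it was 2 with the groups alone, 0 with the ratio and 0 without those 2 arrays. At 20 h (main 2) it was 1 with quantile normalization, 1 with median centring, 0 with the groups alone and 0 with the ratio. Other moves were 6 for 6 h against 0 h in GM DC without the 2 doubted arrays (main 15), 4 in GM4 DC with median centring (main 7), and 6 for 20 h against 6 h in GM DC with the groups alone or without the doubted arrays (main 10). The difference of 20 h responses (main 0) gave 1 call with array weights (Snrp1c-ps2, -1.95), with the groups alone (Srsf6, 0.91) and with the ratio (Snrp1c-ps2, -1.91). The cause was not tested.

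With the replicate number as a block, GM4 against GM at 0 h had 10 calls where the main fit had 4, and no other count moved by over 1.5 times. Leaving out 1 array at a time gave 0 to 7 calls for GM4 against GM at 0 h, 0 to 4 at 6 h and 0 to 2 at 20 h. For 6 h against 0 h it gave 8 to 16 in GM DC and 4 to 9 in GM4 DC, for 20 h against 6 h 2 to 14 and 3 to 13, and for 20 h against 0 h 14 to 24 and 10 to 17. The differences of responses gave 0 to 1 at 6 h and 0 to 2 at 20 h.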
